A study of Mus musculus with 18 samples.

Results

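The comparison described here is that of A10-FMT with Con-FMT livers, 6 of the 18 mouse livers whose RNA was sequenced in this series. Both groups, with 3 livers each, came from male ICR mice of 10 weeks on a high-fat diet (HFD) that received gut microbiota by mouth, and they differed in the donors of that microbiota. For A10-FMT, the donors had been dosed with 10 mg/kg of alginate oligosaccharide (AOS), short sugar chains made from the alginate of brown algae. Donors of the Con-FMT material had been given water. The question was which liver genes differ when only the donor's treatment differs. Of the 19057 gene lines of the table, 17109 had a value above 0, and the 10507 with at least 1 RPKM (reads scaled by transcript length and by the total of mapped reads) in at least 3 of the 18 livers were tested.

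The remaining 4 groups, also with 3 livers each at the same age, were Con (regular diet), AOS (regular diet with AOS), HFD, and HFD+AOS. They entered the choice of genes and the estimate of the spread, and HFD+AOS and HFD served as a second pair that shares no liver with the transplant groups. The transplanted material was small intestinal content pooled within each donor group, so the 3 recipients of a group are 3 mice but not 3 separate donor communities. The study's methods describe no depletion of the recipients' own microbes before the transplant. Nothing in the labels says that the 3 livers of a group came from separate cages. The p values therefore rest on the spread between mice, not between cages or donor pools. That spread was estimated over all 6 groups and not in the transplant livers alone.

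The liver takes up bile acids, lipids and microbial products from the gut through the portal vein, and it turns them over with enzymes whose genes are under hormonal, dietary and circadian control. Its circadian clock is a loop in which BMAL1 (encoded by Arntl) and CLOCK or NPAS2 switch on their own repressors, the PER and CRY proteins, and the nuclear receptors REV-ERB, which in turn shut Arntl off. Outputs of the loop, such as the PAR bZIP factors DBP, TEF and HLF, carry the rhythm to genes of lipid, bile acid and xenobiotic metabolism. Genes of the Arntl phase and genes of the Dbp phase peak at opposite times of the day.

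Summed RPKM per library ran from 755074 to 777378 for A10-FMT but only from 692303 to 740502 for Con-FMT, without overlap. The main fit did not rescale for this gap. Library medians of the tested genes did overlap, at 2.94 to 2.99 against 2.96 to 3.06 on the log2(RPKM + 1) scale. Per transplant liver, between 14512 and 14982 genes were above 0, and the 10 most abundant genes held from 32.1% to 37.2% of the sum. Hepatocyte markers such as Alb and Apoa1 summed to 63900 to 68200 RPKM in A10-FMT and to 73100 to 75500 in Con-FMT. Markers of Kupffer cells, endothelial cells and cholangiocytes had overlapping sums in both groups, 123 to 166 against 123 to 152 for the Kupffer list. Erythroid markers were at 1240 to 2960 against 1370 to 2020, lymphocyte and neutrophil markers at 5.64 to 18.3 against 7.01 to 8.92 (Mpo at 0 in Con-FMT), and adipocyte and pancreas markers at 38.5 to 80.0 against 36.4 to 39.5, with Ins2 at 0 throughout and Lep, Retn, Cfd and Plin1 at 0 in Con-FMT. Outside the transplant groups, the third Con and the third AOS liver lay between the other livers of their group for 98.0% and 96.5% of the genes in which those 2 differed by a log2 of at least 1. A weighted mean of the other livers matched them within a median log2 difference of 0.0665 and 0.0830, against 0.410 to 0.469 in the transplant livers. Because these 2 livers enter the estimate of the spread, counts are also given without them.

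Between A10-FMT and Con-FMT, 177 genes changed (1.68% of those tested) at an adjusted p under 0.05 in limma. In A10-FMT, 129 of them were lower (1.23%) and 48 were higher (0.457%). With the median of every library set equal, 243 genes passed, 108 higher and 135 lower, so that the share of higher genes was 44.4% in place of 27.1%. All 177 genes had 3 livers of one group wholly above the 3 of the other, as 754 genes had in the higher direction (7.18%) and 1172 in the lower (11.2%). At an unadjusted p under 0.05, 599 genes were higher (5.70%) and 1128 lower (10.7%). The median difference over all genes was -0.03 on the log2(RPKM + 1) scale, which is the scale of every difference given here and which understates changes of genes with low RPKM. Of all genes, 43% had a positive difference and 57% a negative one.

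How many genes passed depended on the livers in the fit. Without the third Con and AOS livers 82 genes passed, and with only the 6 transplant livers fitted 4 did (1353 at an unadjusted p under 0.05), namely Elovl3, Chka, Ciart and the histone gene Hist2h3c1, which was not among the 177 and was named after its values were seen. Leaving out A10-FMT replicate 1, 2 or 3 gave 66, 58 or 564 genes, and leaving out Con-FMT replicate 2 gave 51. A set of 45 genes, 11 higher and 34 lower, passed whichever of the 6 transplant livers was left out, and the same 45 also passed under the 6 other alternatives that kept all groups. It included Arntl, Clock, Npas2, Nfil3, Per3, Ciart, Usp2, Wee1, Elovl3, Cdkn1a, Chka, Ppp1r3c, Clpx, Spon2, Fgf21, Upp2, Gys2, Nampt, Lpin2 and Stat5b.

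**Figure D1:**
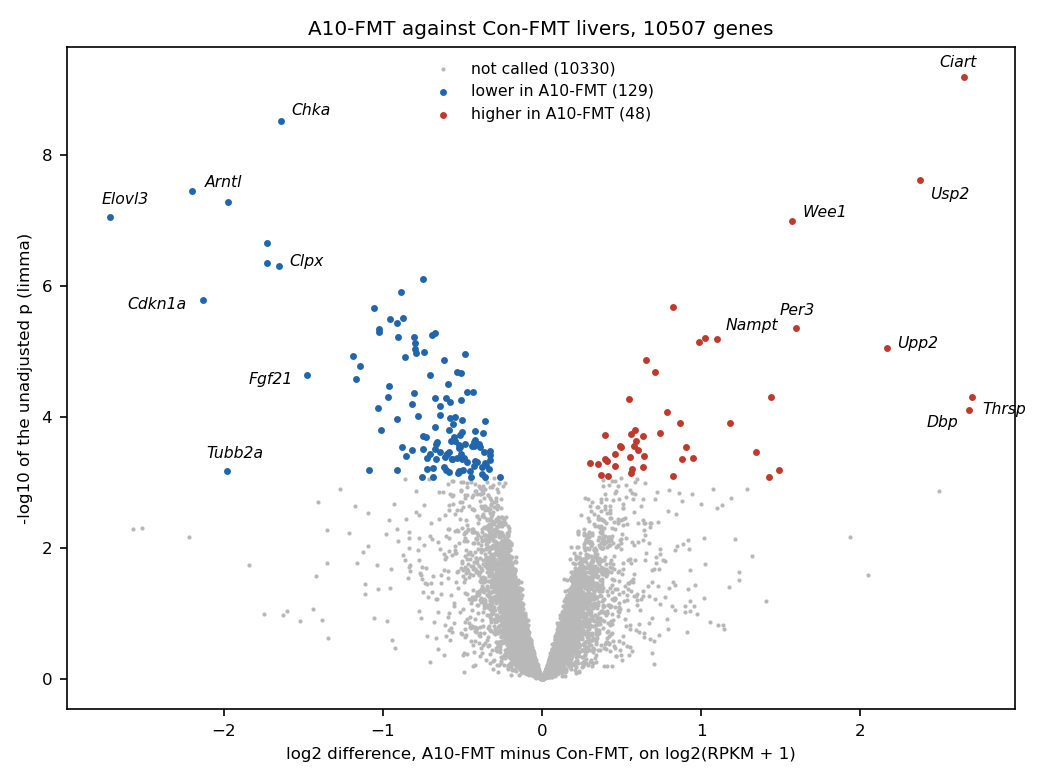
Difference between A10-FMT and Con-FMT for 10507 genes, with the log2 difference on the x axis and -log10 of the unadjusted limma p on the y axis. The 129 lower genes (blue) and 48 higher genes (red) passed the adjusted threshold, and Ciart, Chka, Usp2 and Arntl had the smallest p values.

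Clock genes held the most called members of the lists of genes by function. In A10-FMT livers, 4 of the 6 tested genes that peak with Arntl fell, and 6 of the 14 tested repressors and PAR bZIP outputs rose, against 1.23% and 0.457% over all genes. The first list had a median difference of -0.97 and the second of 1.08, beside -0.03 over all genes. All 14 members of the second had a positive difference, as 43% of all genes had. At an unadjusted p under 0.05 the counts were 5 of 6 lower and 12 of 14 higher, against 10.7% and 5.70% of all genes. The lists and their members were chosen with earlier results of these data known, so these counts describe the lists and do not test them.

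Arntl (chromosome 7, positions 113178471 to 113314126 of GRCm38.p6), which encodes the core activator BMAL1, was at 0.79, 0.69 and 2.41 RPKM in A10-FMT and at 8.02, 12.97 and 6.94 RPKM in Con-FMT. The third A10-FMT liver had the highest value of its group, and the groups did not overlap. The difference was -2.20 (SE 0.22, limma adjusted p = 9.37e-05). Npas2, which can take the place of CLOCK beside BMAL1, was at 0.02, 0.03 and 0.29 RPKM against 1.40, 1.83 and 0.67, a difference of -1.02 (SE 0.15, limma adjusted p = 0.00240). Clock itself was at 2.40, 2.15 and 3.65 RPKM against 5.40, 7.22 and 5.26 (-0.91, limma adjusted p = 0.00247). Nfil3, a repressor that binds the same D-box sites as DBP, was at 8.76, 9.59 and 9.60 RPKM against 20.8, 25.9 and 14.9 (-1.03, limma adjusted p = 0.00246). In these 3 genes, too, no A10-FMT liver reached the lowest Con-FMT liver. Cry1, a repressor that peaks late, did not pass, with overlapping groups (-0.76, limma adjusted p = 0.211).

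Of the repressors, Ciart, whose protein (CHRONO) inhibits BMAL1 and CLOCK, had the smallest p of all genes. Its RPKM was 14.6, 13.7 and 8.99 in A10-FMT and 0.96, 0.63 and 1.90 in Con-FMT, a difference of 2.65 (SE 0.20, limma adjusted p = 6.82e-06). Sequence upstream of Ciart and of Per3 is shown because each holds a short element of the clock loop. The RefSeq promoter windows of these genes (GRCm38.p6) belong to a start inside the annotated gene. Of the 250 bases before that start, 29 for Ciart and 42 for Per3 lie within the gene. They are left out with the 50 bases after the start, which leaves 221 and 208 bases. Each is written 5′ to 3′ on the minus strand that the gene lies on, with capitals marking an E-box (CACGTG, bound by BMAL1 and CLOCK) or a D-box (TTATGTAA or its reverse complement TTACATAA, bound by DBP, TEF, HLF and NFIL3).
Ciart, chr3:95882258-95882478, 3 E-boxes: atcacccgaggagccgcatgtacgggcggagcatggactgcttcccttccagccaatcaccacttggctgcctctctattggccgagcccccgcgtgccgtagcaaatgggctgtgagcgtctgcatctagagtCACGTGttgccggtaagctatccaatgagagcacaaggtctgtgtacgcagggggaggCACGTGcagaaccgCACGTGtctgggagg
Per3, chr4:151044708-151044915, 2 D-boxes: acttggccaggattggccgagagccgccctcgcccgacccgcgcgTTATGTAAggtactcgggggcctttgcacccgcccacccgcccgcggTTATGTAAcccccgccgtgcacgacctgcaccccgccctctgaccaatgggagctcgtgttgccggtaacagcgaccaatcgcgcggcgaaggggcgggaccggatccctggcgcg

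One more motif, the core of a REV-ERB element (AGGTCA or its reverse complement TGACCT), was searched as well. Both strands were searched, each of the stretches shown holds the marked motif alone of the 3, and a match is a description of the letters, not of a bound site. Over all 27025 genes of the promoter table, 8.09% had an E-box, 1.11% a D-box and 18.1% a REV-ERB element core, and matches to different motifs overlapped in 64 of 32851 windows. In windows of 300 bases (250 before to 50 after a start, which need not be the outermost start of the gene) an E-box was in 11.97% of the 8373 tested genes with a promoter in the table, in 7 of 39 called higher and in 13 of 103 called lower. The D-box was in 0.693% of tested genes, in 3 of 39 called higher (Per3, Map2k6 and Coq10b) and in 0 of 103 called lower. For the REV-ERB element core the share was 15.8%, beside 10 of 39 higher and 24 of 103 lower. Among clock genes, Ciart, Tef, Per1, Bhlhe41 and Cry1 had an E-box in a window, and Arntl, Clock, Nfil3, Per1 and Nr1d2 a REV-ERB element core. A window was available for 5 of the 6 tested genes of the Arntl phase and for 11 of the 14 repressors and outputs. Per2, Wee1 and Bhlhe40 had none and were not searched.

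Dbp, which encodes the D-box binding activator, had the largest difference of the list. It was at 126.9, 70.8 and 49.2 RPKM in A10-FMT and at 16.5, 3.24 and 22.6 in Con-FMT, and the difference was 2.68 (SE 0.51, limma adjusted p = 0.0132). Con-FMT replicate 2 was the lowest liver, below the other Con-FMT livers by a wide margin, and the groups did not overlap. Tef, a second PAR bZIP factor, rose from 17.0, 11.5 and 18.1 RPKM to 54.0, 46.8 and 31.5 (1.44, limma adjusted p = 0.00979). Dbp no longer passed when A10-FMT replicate 1 or 2 was left out, nor did Tef, which also lost its call with Con-FMT replicate 2 left out. Over all alternatives the adjusted p went up to 0.228 for Dbp and to 0.105 for Tef.

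Per3, a period gene, rose from 1.67, 1.29 and 2.64 RPKM in Con-FMT to 10.1, 8.86 and 4.59 in A10-FMT (1.60, SE 0.23, limma adjusted p = 0.00240). Usp2, a ubiquitin protease of the clock outputs, rose from 0.85, 1.14 and 1.28 RPKM to 11, 14.4 and 5.77 (2.37, SE 0.23, limma adjusted p = 8.42e-05). Wee1, a kinase that delays entry into mitosis, rose from 1.52, 0.71 and 1.10 RPKM to 5.22, 6.86 and 3.87 (1.57, limma adjusted p = 0.000152). For all 3 genes the lowest A10-FMT liver was replicate 3, and it still lay above every Con-FMT liver. Per2 was at 7.15, 13.9 and 8.23 RPKM against 3.37, 3.88 and 4.02, without passing the test (1.13, limma adjusted p = 0.0810). Nr1d2 (0.79) and Bhlhe41 (0.71) had limma adjusted p values of 0.0887 and 0.0721. For Nr1d1, the gene of REV-ERB alpha, the groups overlapped, with 62.5, 15.3 and 35.9 RPKM against 22.8, 12.7 and 35.2 (0.57, limma adjusted p = 0.690). Hlf (0.37), Cry2 (0.53), Bhlhe40 (0.39) and Per1 (1.03) were also positive and did not pass, with adjusted p values from 0.112 to 0.498.

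In the other groups, Arntl lay between 10.1 and 14.6 RPKM in the 9 Con, AOS and HFD livers and between 1.18 and 1.32 in HFD+AOS. Dbp was at 0.56, 0.27 and 0.59 RPKM in HFD and at 111.8, 88.9 and 97.8 in HFD+AOS. The Con-FMT livers were thus nearer to HFD in Arntl and stood between HFD and A10-FMT in Dbp. The hour at which each liver was taken is not given in the sources used here. A difference of hour and one of the transplant therefore cannot be told apart, for these genes or for any other gene reported here.

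**Figure D2:**
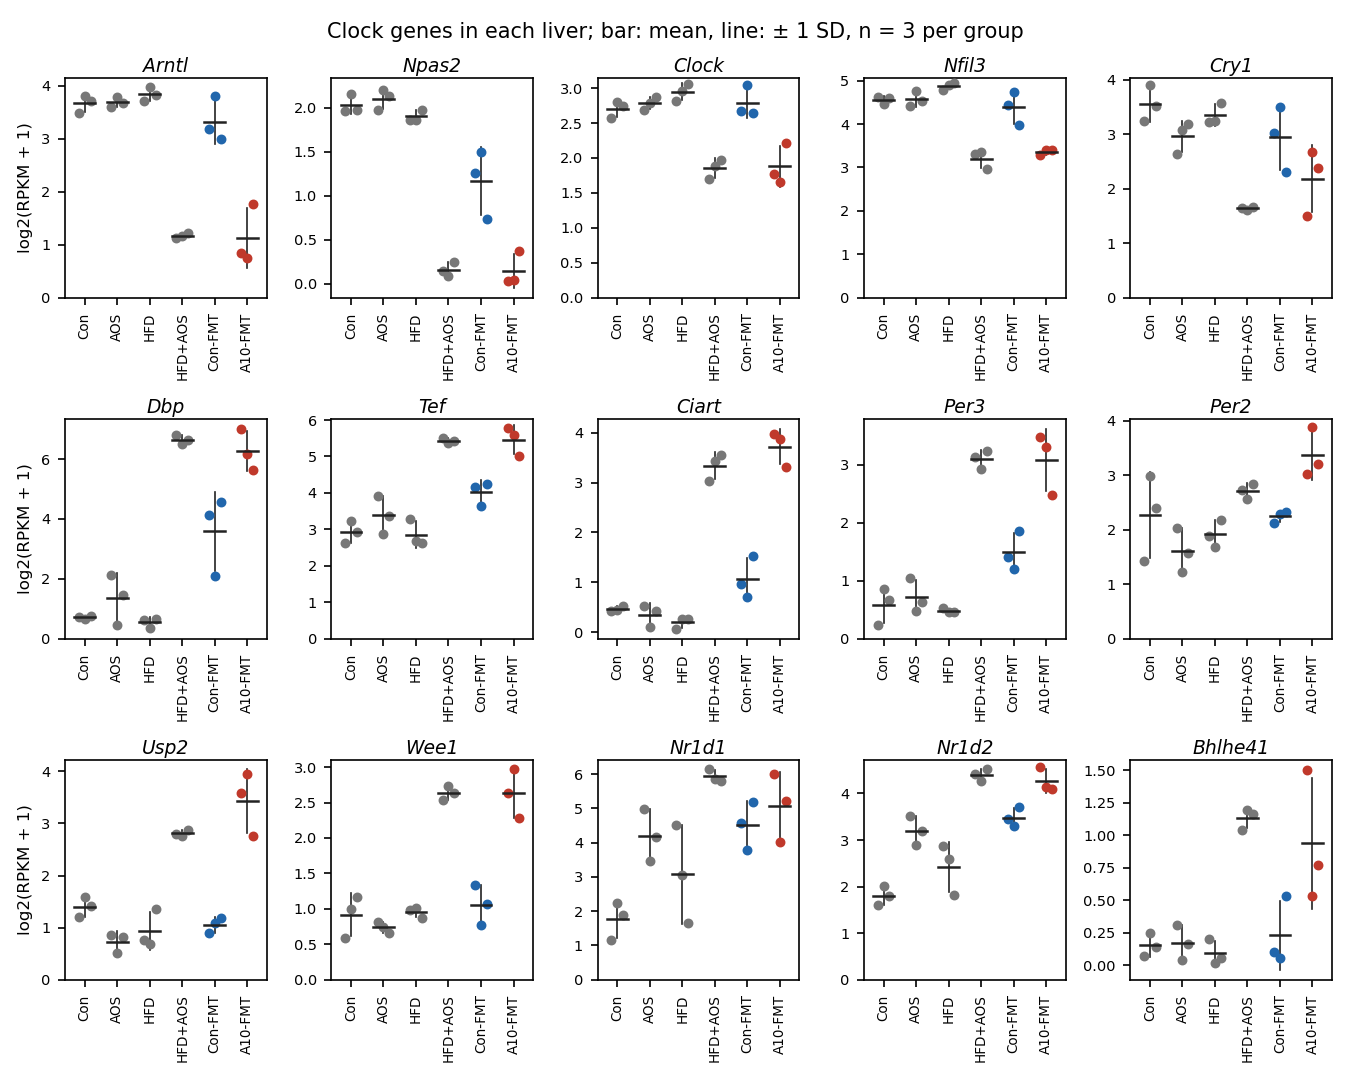
Clock genes as log2(RPKM + 1) in each of the 18 livers by group, with bars for the mean and lines for 1 SD (n = 3). Arntl, Npas2, Clock and Nfil3 are low in A10-FMT (red) and HFD+AOS, where Dbp, Tef, Ciart, Per3, Usp2 and Wee1 are high. Con-FMT (blue) is above A10-FMT in the former genes and below it in the latter, for Dbp between HFD and A10-FMT.

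Outside the clock lists, the largest fall was that of Elovl3, an elongase of very long chain fatty acids that is known to vary over the day in mouse liver. It was at 21.0, 16.8 and 29.1 RPKM in A10-FMT and at 129.9, 114.2 and 220.8 in Con-FMT, a difference of -2.72 (SE 0.29, limma adjusted p = 0.000152). Every A10-FMT liver was well below every Con-FMT liver. Cdkn1a, which encodes the cell cycle inhibitor p21, fell from 6.18, 9.49 and 5.38 RPKM to 0.41, 0.27 and 2.18 (-2.13, SE 0.29, limma adjusted p = 0.00134). The third A10-FMT liver had the highest Cdkn1a value of its group and Con-FMT replicate 2 the highest of the 6.

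Chka, choline kinase alpha, the first step from choline to phosphatidylcholine, was at 9.30, 7.91 and 11.7 RPKM against 27.6, 39.8 and 29.4, a fall of 1.64 on the log2 scale (SE 0.14, limma adjusted p = 1.61e-05). Clpx, the unfolding subunit of a mitochondrial protease, fell from 114.9, 115.8 and 85.9 RPKM to 30.8, 22.2 and 50.4 (-1.65, limma adjusted p = 0.000515). Ppp1r3c, a subunit that targets a phosphatase to glycogen, fell from 77.2, 69.7 and 38.4 RPKM to 16.1, 14.6 and 21.4 (-1.73, limma adjusted p = 0.000515). Here the highest A10-FMT value, 21.4, was still below the lowest Con-FMT value, 38.4. Spon2, a secreted matrix protein, differed by -1.73 (limma adjusted p = 0.000289), with 3.20, 1.66 and 4.55 RPKM against 12.1, 13.4 and 11.

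Fgf21, a hormone that the liver releases under nutritional stress, fell from 5.11, 7.82 and 3.22 RPKM to 1.08, 1.15 and 1.37 (-1.47, SE 0.25, limma adjusted p = 0.00551). Its A10-FMT livers were close together and its Con-FMT livers were not. Tubb2a, a beta tubulin with close relatives that can share its reads, was at 7.74, 10.0 and 47.6 RPKM against 62.2, 91.9 and 48.1. A10-FMT replicate 3 almost met Con-FMT replicate 3 in that gene, and the difference of -1.98 (limma adjusted p = 0.0430) no longer passed in 8 of 13 alternatives, with adjusted p values up to 0.279. Slc16a1, a transporter of lactate and ketone bodies (-0.81, limma adjusted p = 0.00247), and Ldha, the lactate dehydrogenase subunit (-0.55, limma adjusted p = 0.0245), fell as well, and both were picked after their values were seen. Ldha no longer passed without A10-FMT replicate 1 or 2 or Con-FMT replicate 2 or 3, and its adjusted p reached 0.200 over the alternatives.

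The largest rise was that of Thrsp (Spot 14), a nuclear protein that goes with lipid synthesis and responds to feeding and thyroid hormone. It was at 355.1, 634.7 and 587.5 RPKM in A10-FMT and at 114.5, 33.5 and 121.1 in Con-FMT, a difference of 2.70 (SE 0.49, limma adjusted p = 0.00979). The groups were wide but did not meet. It no longer passed without A10-FMT replicate 2 (adjusted p = 0.0605) or Con-FMT replicate 2 (adjusted p = 0.0572), and the limma adjusted p ranged from 0.00812 to 0.121 over the alternatives. Upp2, a liver uridine phosphorylase, rose from 60.6, 26.9 and 44.1 RPKM to 301.4, 208.4 and 109.0 (2.16, SE 0.34, limma adjusted p = 0.00313). Inmt, an amine N-methyltransferase, was at 579.6, 708.7 and 374.2 RPKM against 350.6, 136.9 and 162.9 (1.43, limma adjusted p = 0.0492), with the third A10-FMT liver close to the first Con-FMT liver. Retnla, which encodes a secreted resistin-like protein, was at 7.87, 1.81 and 1.25 RPKM against 0.41, 0.42 and 0.27 (1.49, limma adjusted p = 0.0428). Its highest value was in A10-FMT replicate 1, the liver with the highest sums of adipocyte and pancreas markers (80.0 RPKM, against 36.4 to 40.9 in the other 5) and of lymphocyte and neutrophil markers (18.3 RPKM), and their part in the difference was not tested. Inmt and Retnla no longer passed in 9 of 13 alternatives each, with adjusted p values up to 0.250 and 0.282.

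Gys2, the glycogen synthase of the liver, rose from 40.8, 47.8 and 45.4 RPKM to 107.6, 102.4 and 69.9 (1.02, SE 0.15, limma adjusted p = 0.00247), while the glycogen-targeting gene Ppp1r3c fell, which makes 2 calls among 24 genes of glucose and glycogen metabolism (1.68% of all genes were called, list median 0.15). Nampt, the rate-limiting enzyme of NAD salvage, rose from 8.90, 9.61 and 7.96 RPKM to 19.4, 26.5 and 15.6 (1.10, SE 0.17, limma adjusted p = 0.00247). Gpcpd1, which splits glycerophosphocholine, rose from 11.2, 8.11 and 10.0 RPKM to 37.1, 25.1 and 13.4 (1.18, limma adjusted p = 0.0179), with the third A10-FMT liver near the Con-FMT livers. Without A10-FMT replicate 1 or 2 or Con-FMT replicate 2 it did not pass, and its adjusted p reached 0.250. Klf13 (0.99, limma adjusted p = 0.00270) rose too. Nampt, Gpcpd1 and Klf13 were picked after their values were seen.

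**Figure D3:**
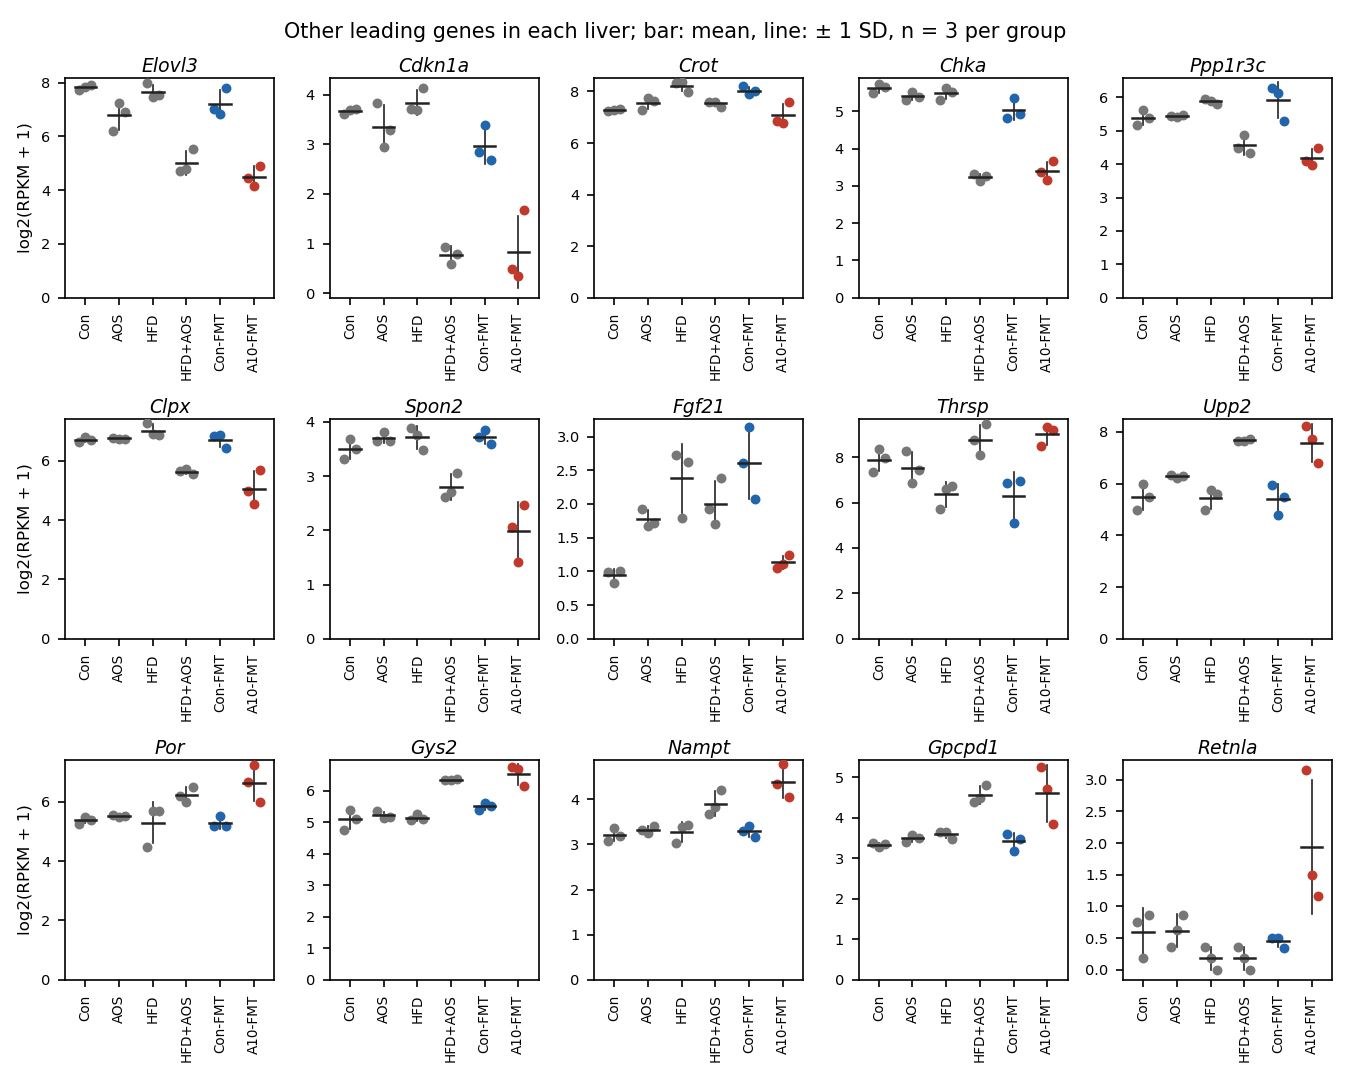
Leading genes outside the clock lists as log2(RPKM + 1) in each of the 18 livers by group, with bars for the mean and lines for 1 SD (n = 3). Elovl3, Cdkn1a, Crot, Chka, Ppp1r3c, Clpx, Spon2 and Fgf21 are lower in A10-FMT (red) than in Con-FMT (blue), and Thrsp, Upp2, Por, Gys2, Nampt, Gpcpd1 and Retnla are higher.

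Genes of cholesterol synthesis and SREBP2 control all had a negative difference (26 of 27 with library medians set equal), beside 57% of all genes. Of the 27, 1 passed the test, against 1.23% over all genes. The list had a median difference of -0.45 (-0.27 when the first A10-FMT liver was left out, -0.78 when the third was), and 9 of its 27 members were lower at an unadjusted p under 0.05, beside 10.7% of all genes. The called member was Srebf2, the factor that switches these genes on, with 6.92, 7.81 and 11.4 RPKM in A10-FMT against 12.9, 14.7 and 12.3 in Con-FMT (-0.58, SE 0.14, limma adjusted p = 0.0445). The groups were apart by less than 1 RPKM, and the call was lost in 8 of 13 alternatives, with adjusted p values up to 0.258. Sqle, squalene epoxidase, was at 8.43, 8.83 and 39.2 RPKM against 30.6, 30.3 and 38.4 (-1.13, limma adjusted p = 0.169). Hmgcs1 was at 31.7, 30.9 and 195.9 RPKM against 163.1, 146.8 and 139.8 (-1.35, limma adjusted p = 0.197). In both genes 2 A10-FMT livers were low and replicate 3 was as high as or above the Con-FMT livers, and without it Sqle (adjusted p = 0.000201) and Hmgcs1 (adjusted p = 0.000488) passed, within ranges over the alternatives that reach 0.514 and 0.560.

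Abcg5, a subunit of the canalicular sterol exporter, rose from 40.2, 27.5 and 31.1 RPKM to 57.0, 46.9 and 43.0 (0.57, SE 0.13, limma adjusted p = 0.0426). Its partner Abcg8 was at 35.7, 25.6 and 28.4 RPKM against 27.2, 17.2 and 20.5 without passing (0.46, limma adjusted p = 0.122). Of the 13 tested LXR targets and sterol transport genes, Abcg5 was the called one (0.457% of all genes rose), and the list's median was 0.09, with 7 members positive and 6 negative. The call of Abcg5 was lost in 7 of 13 alternatives (adjusted p up to 0.257).

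Lipid synthesis genes did not move together. Thrsp was the called member of 16 tested genes of de novo lipogenesis (0.457% of all genes rose), with a list median of 0.08. Fasn, fatty acid synthase, was at 13.7, 27.4 and 50.02 RPKM against 29.7, 28.4 and 35.3 (-0.21, limma adjusted p = 0.854), and Scd1, the delta-9 desaturase, at 45.5, 57.5 and 216.0 RPKM against 163.4, 26.7 and 99.2 (0.12, limma adjusted p = 0.963). Srebf1, the factor that drives lipogenesis, was at 77.7, 90.4 and 87.6 RPKM against 66.0, 60.7 and 53.4, which did not overlap and did not pass (0.50, limma adjusted p = 0.229). Among 14 genes of triglyceride assembly, 2 were called higher (0.457% of all genes), while the list's median was -0.10 and 8 members were negative. At an unadjusted p under 0.05, 4 were higher and 4 lower (5.70% and 10.7% of all genes). Lpin2, a phosphatidate phosphatase, rose from 13.4, 14.8 and 13.9 RPKM to 24.8, 20.1 and 26.4 (0.71, limma adjusted p = 0.00536). Gpat4, an acyltransferase of the first step, rose from 23.1, 22.3 and 21.8 RPKM to 29.8, 28.6 and 25.2 (0.30, limma adjusted p = 0.0364) but lost the call in 7 of 13 alternatives (adjusted p up to 0.271). The delta-5 desaturase gene Fads1 differed by -0.18 (limma adjusted p = 0.797).

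Of the 34 tested genes of fatty acid oxidation and ketogenesis, 1 was called, in the lower direction (1.23% of all genes). This gene, Crot, the peroxisomal carnitine octanoyltransferase, fell from 291.6, 239.9 and 256.2 RPKM to 116.1, 107.5 and 189.5 (-0.97, SE 0.18, limma adjusted p = 0.00979). Without A10-FMT replicate 1 or 2 it did not pass, and its adjusted p reached 0.189. The list's median was -0.07. Ppara (0.15, limma adjusted p = 0.638) and Cpt1a (0.03, limma adjusted p = 0.936) had overlapping groups. Cyp4a14, a PPAR alpha target, was at 0.36, 0.36 and 3.21 RPKM against 2.18, 29.6 and 13.95, and Cyp4a10 at 1.19, 3.48 and 4.02 RPKM against 4.57, 45.2 and 7.78. Neither passed (-2.51 with adjusted p = 0.12 and -1.84 with adjusted p = 0.201 in limma), and Con-FMT replicate 2 was far above the rest in both of these paralogs, which can share reads.

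In bile acid synthesis and FXR control, Nr1h4, which encodes the bile acid receptor FXR, was the called gene of 19 (0.457% of all genes rose). It was at 88.7, 96.3 and 72.4 RPKM in A10-FMT and at 56.6, 64.3 and 60.7 in Con-FMT (0.49, SE 0.10, limma adjusted p = 0.0285). The call was lost on leaving out any Con-FMT liver or A10-FMT replicate 1 or 2, with limma adjusted p values from 0.00281 to 0.236 over the alternatives. Cyp7a1, the rate-limiting enzyme of bile acid synthesis, was at 31.5, 87.6 and 20.5 RPKM against 18.7, 19.7 and 18.9. Every A10-FMT liver was above the Con-FMT livers, one by a narrow margin, and the difference of 0.97 had a standard error of 0.56 (limma adjusted p = 0.399). The list had a median of -0.05. None of 11 genes of bile acid and canalicular transport was called in limma (median -0.04), and 2 were lower at an unadjusted p under 0.05 (10.7% of all genes).

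Retinoid genes showed 0 calls in limma among 29 tested, and their median was -0.02 (0.02 with library medians set equal). At an unadjusted p under 0.05 were 5 of them, 2 higher and 3 lower (5.70% and 10.7% of all genes). Rbp4, the plasma carrier of retinol, was at 3736, 4134 and 3459 RPKM against 3327, 3669 and 3202 (0.15, limma adjusted p = 0.517). Dhrs9, a retinol dehydrogenase, was not tested, since it lay between 0.02 and 0.09 RPKM in the 6 livers.

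**Figure D4:**
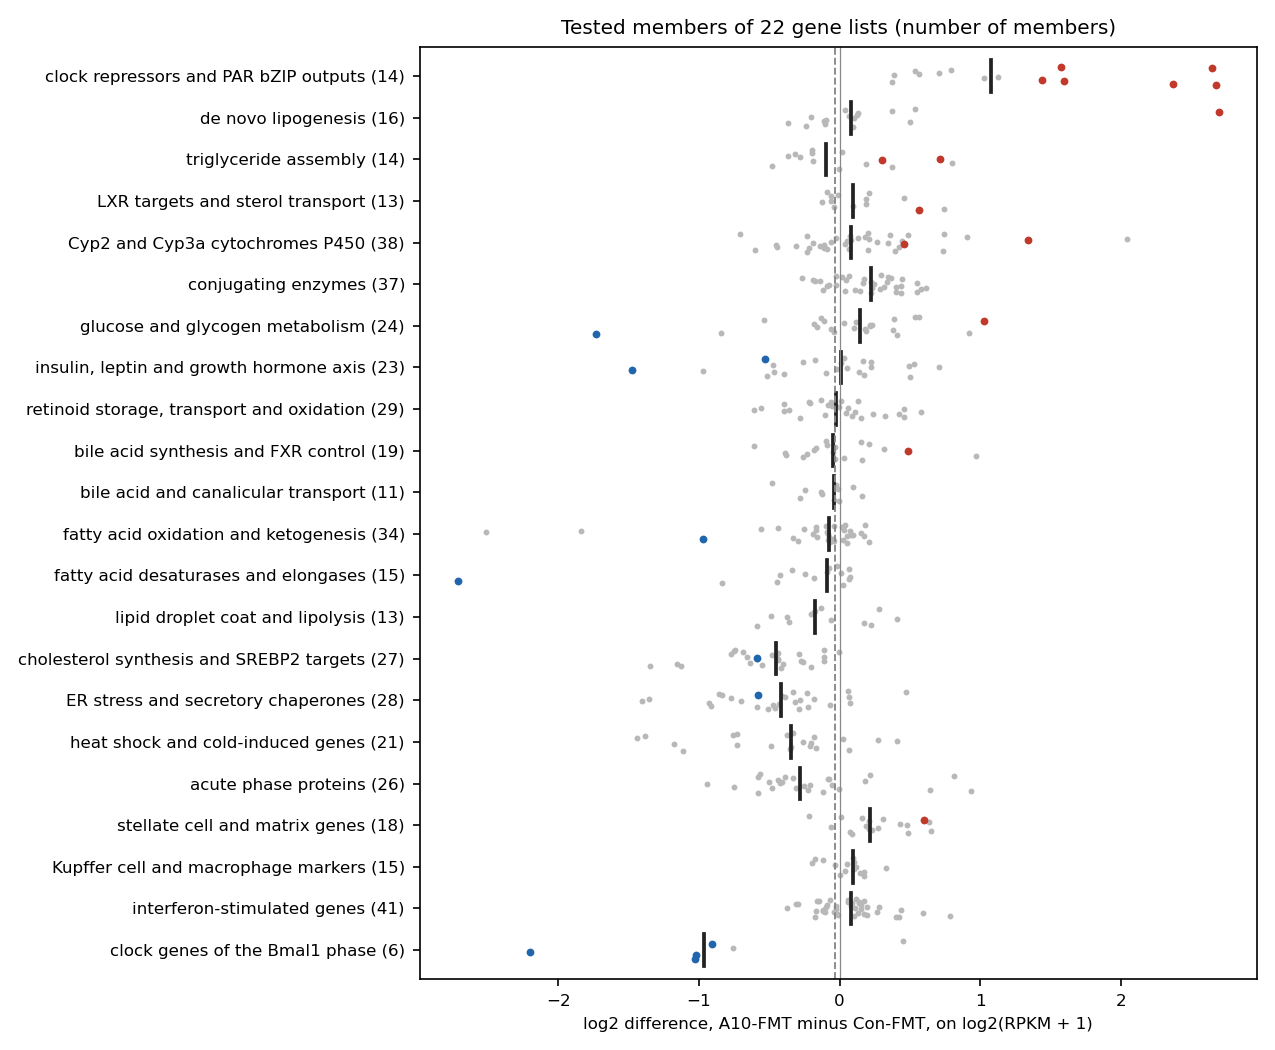
Log2 difference between A10-FMT and Con-FMT of every tested member of 22 gene lists, with black bars for list medians, red and blue points for genes called higher and lower, and grey points for genes not called. The dashed line is the median of all genes (-0.03), and the 2 clock lists (medians 1.08 and -0.97) lie farthest from it.

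ER stress and secretory chaperone genes had a median difference of -0.42, which was -0.22 without Con-FMT replicate 2 and -0.62 without Con-FMT replicate 1. Sel1l, a part of the machinery that clears misfolded proteins from the ER, fell from 19.0, 31.0 and 24.9 RPKM to 14.6, 15.6 and 18.1 (-0.58, limma adjusted p = 0.0309). It was the 1 call among 28 genes (1.23% of all genes fell), and 7 of 13 alternatives did not keep it (adjusted p up to 0.274). At an unadjusted p under 0.05, 17 of the 28 were lower (10.7% of all genes were). Hspa5, the main ER chaperone BiP, was at 147.3, 208.4 and 263.8 RPKM against 233.9, 606.4 and 397.2 (-0.93, limma adjusted p = 0.0795), and Sdf2l1 at 9.88, 8.49 and 12.4 RPKM against 11.6, 57.3 and 33.9 (-1.41, limma adjusted p = 0.0766). Con-FMT replicate 1 was low in both and met the A10-FMT range, and without it Hspa5 and Sdf2l1 passed, as Hspa5 did without A10-FMT replicate 3 (lowest adjusted p over the alternatives 0.00879 and 0.00143, highest 0.355 and 0.346). Atf4, the factor of the integrated stress response, was at 49.9, 64.9 and 57.8 RPKM against 69.8, 99.4 and 78.5 (-0.51, limma adjusted p = 0.0532). Heat shock genes had a median of -0.35 and 0 calls in limma among 21, with 6 lower at an unadjusted p under 0.05 (10.7% of all genes). The median was -0.20 without A10-FMT replicate 1. Of the 6, the small heat shock protein gene Hspb1 was at 24.0, 33.4 and 36.1 RPKM against 47.8, 118.8 and 62.1 (-1.18, limma adjusted p = 0.0819).

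In the list of insulin, leptin and growth hormone genes, Fgf21 and Stat5b fell, 2 of 23, beside 1.23% of all genes. Stat5b, which carries the growth hormone signal to the nucleus, was at 9.22, 8.57 and 9.88 RPKM against 14.5, 15.3 and 11.7 (-0.53, SE 0.09, limma adjusted p = 0.00536). Elovl3 was also the 1 called gene (1.23% of all genes fell) of 17 male-biased liver genes, whose median was 0.18. Gldc, the glycine cleavage enzyme, fell from 67.3, 78.7 and 64.1 RPKM to 27.4, 26.4 and 52.2 (-1.03, limma adjusted p = 0.0125). It was the 1 called gene (1.23% of all genes fell) of 40 genes of amino acid catabolism with a median of 0.03. It did not pass without A10-FMT replicate 1 or 2 or Con-FMT replicate 2, with adjusted p values up to 0.229.

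Of 38 tested genes of cytochrome P450 metabolism, Por and Cyp1a2 rose, beside 0.457% of all genes. Por, the reductase that feeds electrons to all microsomal P450 enzymes, was at 100.9, 151.6 and 63.4 RPKM in A10-FMT and at 35.5, 45.3 and 35.4 in Con-FMT (1.34, SE 0.30, limma adjusted p = 0.0309). Cyp1a2, a target of the aryl hydrocarbon receptor and of the pericentral zone, was at 321.6, 325.3 and 339.2 RPKM against 257.8, 208.5 and 252.7 (0.46, SE 0.10, limma adjusted p = 0.0322). Both lost the call in several alternatives, Por in 8 and Cyp1a2 in 6 of 13 (adjusted p up to 0.189 and 0.210). Without passing, Cyp2e1 was at 5354, 5937 and 4343 RPKM against 4325, 3672 and 3634 (0.42, limma adjusted p = 0.143). Conjugating enzymes had a median of 0.23, with 28 of 37 positive (43% of all genes) and 0 calls in limma. Of the 37, 5 were higher at an unadjusted p under 0.05 (5.70% of all genes). Reads of near-identical Ugt, Gst and Cyp genes may be shared.

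Stress genes split. Gadd45a, a growth arrest gene, rose from 2.43, 1.69 and 2.15 RPKM to 5.31, 4.12 and 3.60 (0.78, limma adjusted p = 0.0139), in the list in which Cdkn1a fell, 2 calls of 15 (1.68% of all genes). Maff, a small MAF factor of the immediate early list, rose from 0.89, 1.21 and 0.90 RPKM to 4.53, 1.81 and 2.18 (0.88, limma adjusted p = 0.0342). Gadd45a lost its call in 4 of 13 alternatives, each leaving out A10-FMT replicate 1 or 2 or Con-FMT replicate 2 or all groups but the 2 compared (adjusted p up to 0.146), and Maff in 8 (adjusted p up to 0.250).

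Acute phase proteins had a median of -0.28, which was -0.16 without Con-FMT replicate 2. Of 26, 21 were lower (57% of all genes), limma called 0, and 5 were lower at an unadjusted p under 0.05 (10.7% of all genes). Fgg, the gamma chain of fibrinogen, was at 1882, 1461 and 1994 RPKM against 2443, 2861 and 2611 without overlap (-0.58, limma adjusted p = 0.0649), and Saa1 differed by -0.42 (limma adjusted p = 0.845). Limma called 0 of 41 interferon-stimulated genes (median 0.08) and 0 of 8 genes of MHC class II antigen presentation (median 0.21). It called 0 of 15 Kupffer cell and macrophage markers (median 0.10). At an unadjusted p under 0.05 were 1 interferon-stimulated gene, which was lower, and 0 genes of the other lists. Of all genes, 5.70% were higher and 10.7% lower at that threshold. Without Con-FMT replicate 2 these medians were -0.07, 0.02 and -0.03.

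Stellate cell and matrix genes had a median of 0.22. Of 18, 16 were positive (43% of all genes) and 1 was called higher (0.457% of all genes). The called gene was Col1a2, a chain of type I collagen, at 3.97, 3.64 and 2.38 RPKM against 1.56, 2.15 and 1.77 (0.60, SE 0.13, limma adjusted p = 0.0297), which 8 of 13 alternatives did not keep (adjusted p up to 0.250). Col3a1 was at 10.9, 7.44 and 5.43 RPKM against 4.16, 4.81 and 4.60 (0.65, limma adjusted p = 0.0546). The summed list was at 146 to 163 RPKM in A10-FMT and at 111 to 146 in Con-FMT, and in whole liver more cells of a type and more RNA per cell cannot be told apart.

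A10-FMT livers differed among themselves in how far they lay from Con-FMT. Replicate 3 was the A10-FMT liver nearest to Con-FMT for 105 of the 129 lower genes and for 39 of the 48 higher genes. Within Con-FMT, replicate 3 was nearest to A10-FMT for 76 of the 129 lower genes, replicate 1 for 46 and replicate 2 for 7, and for the 48 higher genes the 3 livers took 15, 16 and 17. Of the 177 genes, 33 changed by a log2 difference of at least 1, 14 higher and 19 lower. The lists held 30 of the 177 genes, and 147 were in none. Of the lists of large complexes, limma called 0 of 77 genes of the respiratory chain and ATP synthase. Their median was 0.11, and 64 were positive (43% of all genes). At an unadjusted p under 0.05, 4 were higher and 1 lower (5.70% and 10.7% of all genes). Limma also called 0 of 76 cytosolic ribosomal proteins (median 0.06), and 0 were at an unadjusted p under 0.05, beside the same shares. It called 0 of 36 proteasome subunits, with 1 higher and 3 lower at an unadjusted p under 0.05 (5.70% and 10.7% of all genes). Limma called 0 of 78 mitochondrial ribosomal proteins (median 0.07). Of these 78, 7 were higher and 1 lower at an unadjusted p under 0.05 (5.70% and 10.7% of all genes).

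The called genes were then read in HFD+AOS and HFD livers, where AOS was given to the mice themselves and no liver is shared with the transplant groups. In that pair 438 genes were higher (4.17% of those tested) and 481 lower (4.58%) at an adjusted p under 0.05. Of the 129 genes lower in A10-FMT, 125 were also lower in HFD+AOS and 89 passed the test there. Of the 48 higher genes, 47 were also higher and 35 passed, and 0 of the 177 passed in the opposite direction (limma). The 124 shared genes were 70.1% of the 177 and 13.5% of the 919 called in HFD+AOS. Both pairs were tested in the same fit, with the same estimate of each gene's spread, so that these shares are not independent counts. Median differences were -0.61 and 0.68 for the lower and higher genes in the transplant pair and -0.55 and 0.63 in the AOS pair. The share of all genes with the same sign in both pairs was not counted. Across genes, which are not independent replicates, Pearson's r between both differences was 0.58 over all 10507, with Spearman's rho of 0.51. Over the 177 genes r was 0.91, but these were chosen by their difference in the transplant pair, which by itself can raise r.

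Sizes in both pairs differed from gene to gene. Arntl differed by -2.67 in HFD+AOS against HFD, Ciart by 3.14, Elovl3 by -2.64, Cdkn1a by -3.06, Chka by -2.25 and Upp2 by 2.25, with limma adjusted p values from 2.81e-07 to 0.000995. The clock lists had medians of -1.69 (Arntl phase) and 1.78 (repressors and outputs) there, beside -0.97 and 1.08 in the transplant pair, and 12 of 14 repressors and outputs rose in place of 6. Nr1d1 differed by 2.86 there and by 0.57 in the transplant pair, Nr1d2 by 1.97 and 0.79, Per3 by 2.62 and 1.60, and Tef by 2.58 and 1.44, and none of these differences between the pairs passed the test (limma adjusted p from 0.440 to 0.568). Dbp differed by 6.09 there and by 2.68 in the transplant pair, and the difference between both (-3.41, SE 0.72) did not pass the test over all genes (limma adjusted p = 0.235). Fgf21 was at 2.81, 2.27 and 4.20 RPKM in HFD+AOS and at 5.64, 2.46 and 5.15 in HFD, with overlapping groups (-0.38, limma adjusted p = 0.362), and its difference between the pairs did not pass either (-1.10, limma adjusted p = 0.518). Retnla was between 0 and 0.28 RPKM in all 6 of those livers. Srebf2 (-0.21, limma adjusted p = 0.373) and Col1a2 (0.11, limma adjusted p = 0.632) were not called there, while Nr1h4 was (0.38, limma adjusted p = 0.0378).

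The test of the difference between the pairs called 1 gene (0.00952% of those tested), and 784 were at an unadjusted p under 0.05, 38 of them among the 177. The gene was Ablim3, an actin-binding LIM protein, named after its values were seen. It was at 4.39, 5.13 and 3.75 RPKM in A10-FMT and at 3.23, 3.31 and 3.52 in Con-FMT, but at 3.51, 3.26 and 3.25 in HFD+AOS and at 6.66, 7.18 and 7.66 in HFD. The AOS pair thus differed by -0.91 (limma adjusted p = 9.37e-05) and the transplant pair by 0.31, which did not pass (limma adjusted p = 0.144), and the difference of 1.22 (SE 0.14) had a limma adjusted p of 0.00323.

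**Figure D5:**
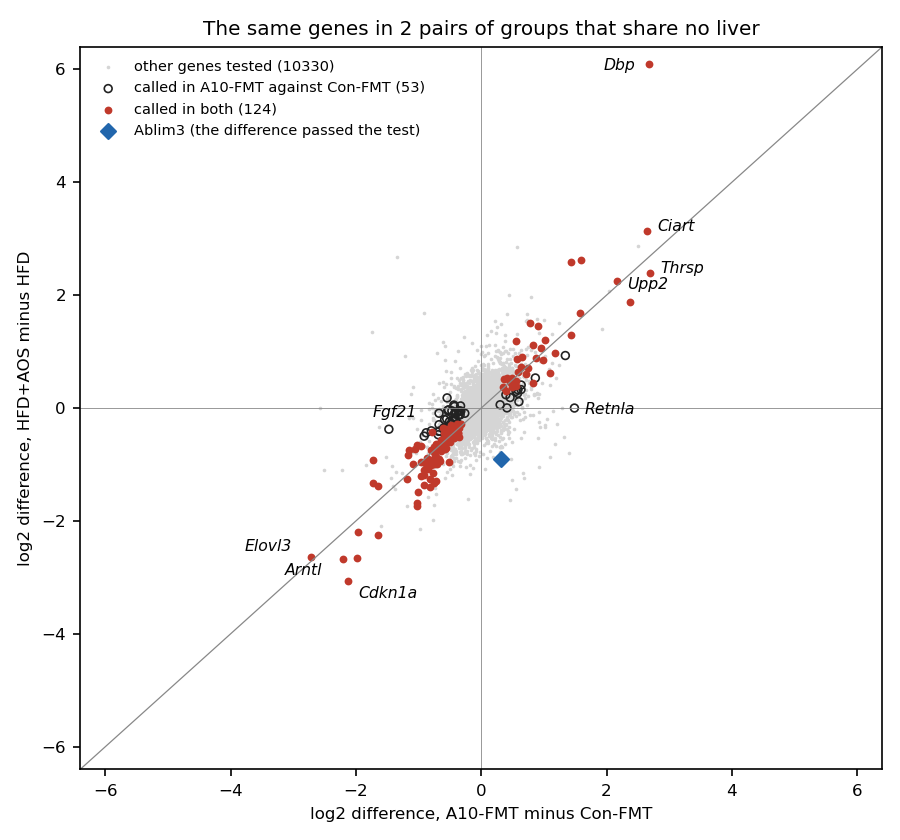
Log2 difference of A10-FMT minus Con-FMT (x axis) against that of HFD+AOS minus HFD (y axis), both on log2(RPKM + 1), for 10507 genes. Red points are the 124 genes called in both pairs, open circles the 53 called in the transplant pair alone, and the diagonal marks equal differences. Ablim3 (blue) is the gene whose difference between the pairs passed the test.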

How the data were processed

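Liver RNA of 18 mice was sequenced. The authors mapped reads to reference genes with SOAPaligner, reporting all hits of a read, and deposited RPKM per gene symbol, rounded to 2 decimals. No unit is given in the header of the table: that the values are RPKM comes from the study's methods. The submitters' processing notes also name Bowtie 0.12.2 and mm10, with no role given, and the strandedness is not given in the sources used here. Reads of near-identical genes can therefore be shared. Of the lines, 3 repeat a symbol. RPKM holds no read numbers, so the absolute depth behind a value is unknown and DEGseq, which the study names, was not run.

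Groups came from the labels and columns were matched by their names. Genes with at least 1 RPKM in at least 3 of 18 libraries were kept. Values were log2(RPKM + 1), without further scaling. One fit held a mean for each of the 6 groups with lmFit and trended eBayes from limma 3.58.1 under R 4.3.3. Tests were two-sided, p values of each contrast were adjusted after Benjamini and Hochberg, and the threshold was 0.05. Since 3 livers against 3 cannot give an exact permutation p below 0.1, the p values rest on the spread shared over genes and groups. The fit was tested on simulated data. Promoter windows and gene positions are from RefSeq (GRCm38.p6), and 83 of 83 gene symbols of the text were matched for position. Python 3.11.15, pandas 2.3.3 and matplotlib 3.10.9 were used for motifs and figures.

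Genes were named by a rule: the 10 largest called differences in each direction, every called member of the 46 gene lists, the up to 2 members of a list with the smallest p, and set genes of the study and of each list. The members and lists were chosen with earlier results of these data known. Some items that the rule or a list would name are not reported here. Lists are described by counts and medians, with no set test. The alternatives were equal library medians, no filter on low values, a pseudocount of 0.1, a fit of only the groups compared, a replicate block, Con and AOS without replicate 3, eBayes without trend, stricter thresholds, and each liver left out in turn.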

Additional observations from a re-analysis of the deposited data

Results flagged for a closer look

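Ablim3 was the gene whose difference between A10-FMT and Con-FMT was unlike that between HFD+AOS and HFD by the test of the difference itself. The transplant pair differed by 0.31, which did not pass (limma adjusted p = 0.144), and the AOS pair by -0.91 (limma adjusted p = 9.37e-05). The difference of the differences was 1.22 on the log2 scale (SE 0.14, limma adjusted p = 0.00323). All 3 A10-FMT livers were above the Con-FMT livers and all 3 HFD+AOS livers below the HFD livers, and the 3 HFD livers, at 6.66 to 7.66 RPKM, were the highest of the 12 livers on the high-fat diet.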

How the results depend on the processing

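The 177 genes of A10-FMT against Con-FMT became 33 with an absolute log2 difference of at least 1 added, 10 at an adjusted p of at most 0.001 with that difference, 100 without the low-value filter, 4 with only the groups compared in the fit, 82 without the third Con and AOS livers, and from 51 to 564 with a transplant liver left out. The 919 genes of HFD+AOS against HFD became 84 and 35 at the stricter thresholds, 435 with only the groups compared, 496 without the third Con and AOS livers, and from 320 to 1282 with a liver of the pair left out. The gene whose change differed between the pairs became 0 at the strictest threshold (784 at an unadjusted p under 0.05 in limma), 2 without the filter, and from 1 to 5 with a liver left out. Equal library medians, a pseudocount of 0.1, the replicate block and eBayes without trend kept each count within 1.5 times. Same-numbered A10-FMT and Con-FMT livers had correlations of their deviations of -0.04, -0.02 and -0.07. For HFD+AOS and HFD these were 0.02, -0.18 and 0.23. With 3 livers per group, such values do not settle whether the numbers pair the livers. With the replicate block 168 genes passed, 148 of them among the 177. No called gene of the text reversed. Among genes not called, the sign turned for Scd1 without A10-FMT replicate 3 or Con-FMT replicate 2 (-0.61 to 0.67 over the livers left out), for Fasn without A10-FMT replicate 1 (-0.65 to 0.25), and for Cpt1a without A10-FMT replicate 2 or Con-FMT replicate 2 (-0.019 to 0.090). What made these counts and signs change was not tested.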
